A study of Mus musculus with 96 samples.

Results

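The nuclear genes of mitochondrial complex I were followed in C2C12 cells across cell states, respiratory chain inhibitors and NADH-oxidizing transgenes. The members were the rows whose gene symbol starts with Ndufa, Ndufb, Ndufc, Ndufs or Ndufv followed by a digit, with Ndufab1 and the assembly factors Ndufaf1 to Ndufaf8, provided that every replicate of at least 1 condition had at least 16 counts. The symbols matched 46 rows and 45 passed, among 13357 genes that pass the same filter and 54150 rows in all. The row that did not pass was Ndufa4l2, a paralog of Ndufa4, which had at most 9 counts in any sample. Of the 45 members, 44 passed the filter in all 35 conditions and Ndufaf6 passed in 33, so that membership did not rest on a response to any treatment. By role, 8 members belong to the N module, 7 to the Q module, 10 to the proximal and 10 to the distal membrane arm, and 8 are assembly factors. The other 2 are Ndufab1, the acyl carrier protein that sits in both arms, and Ndufa4, which carries a complex I name but is a subunit of cytochrome c oxidase.

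Complex I passes electrons from NADH to ubiquinone and couples this to proton pumping across the inner mitochondrial membrane. The N module binds and oxidizes NADH, the Q module carries the electrons over iron-sulphur clusters to ubiquinone, and the membrane arms hold the pumps, whose catalytic subunits are encoded in mitochondrial DNA. Assembly factors bring these modules together and leave the finished enzyme, and muscle fibres, which rely on oxidative phosphorylation, build large amounts of it as they differentiate.

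C2C12 is a mouse myoblast line that fuses into myotubes in low serum, and 96 samples in 35 conditions were profiled by RNA-seq of polyA RNA. Proliferating myoblasts, kept in 10% serum, carried a doxycycline-inducible transgene delivered by lentivirus and received 300 ng/ml doxycycline from 24 hours before treatment. The transgene was luciferase in the control line, LbNOX (a bacterial water-forming NADH oxidase, which acts in the cytosol), mitoLbNOX (the same enzyme sent to mitochondria) or NDI1 (the yeast NADH dehydrogenase). Myotubes were untransduced cells after 4 days in 2% horse serum, or cells transduced at 48 hours in low serum with adenovirus for GFP alone or for GFP with LbNOX. The remaining state, called day 1 cells here, was untransduced and was treated once it had spent 24 hours in low serum. Treatment lasted 10 hours in media without pyruvate or uridine with DMSO, 0.5 µM piericidin (a complex I inhibitor), 0.5 µM antimycin (complex III), 1 µM oligomycin (ATP synthase) or 0.5 µM BAM15 (an uncoupler). Some myotubes were kept in 5% oxygen, which began the night before treatment and went on through it, and some received oligomycin together with piericidin or BAM15. Chloramphenicol (CAP, 20 µg/ml), which blocks mitochondrial translation, was given for 48 hours to control and LbNOX myoblasts with uridine in the medium. Each condition had 3 replicates, except NDI1 myoblasts, GFP myotubes and the 48 hour conditions, which had 2. Nothing in the labels ties a replicate to its own culture, so p-values measure the spread between these samples, which may be technical. Myoblasts differed from the other states in transgene, doxycycline and serum as well as in state.

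Libraries held 6458295 to 15366745 counts, of which the members took 23847 to 50883. All samples with a transgene held at least 372 counts for it, and 0 samples held counts for a foreign one. LbNOX and mitoLbNOX were counted as the same transgene, so these counts do not tell those lines apart. The 10 muscle markers summed to 11200 to 15590 CPM (counts scaled to a common library size, TMM-normalized over the 96 samples) in myotubes, to 11730 to 12860 in day 1 cells and to 11.9 to 80.6 in myoblasts, where at most 3 of them had no count. The 8 proliferation markers ran the other way, from 911 to 2261 in myoblasts and 41.1 to 252 in myotubes, and the 3 fibroblast-like markers reached 427 in myotubes against at most 91.1 in myoblasts. In these bulk samples fewer cells of a type and less RNA per cell cannot be told apart. Levels below are in CPM (counts scaled to a common library size, TMM-normalized over the 96 samples), while the marker sums above are without TMM. A log2 fold change is given with its standard error from edgeR, and a gene is said to rise or fall where its p, adjusted over all genes of the fit, is under 0.05.

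The condition means of a member differed by 1.28-fold (Ndufs6, an N module subunit) to 5.49-fold (Ndufaf6, an early assembly factor) between its lowest and highest of the 35 conditions, with a median over members of 1.82-fold. The median spread within a condition was 5.44% of the mean. After Ndufaf6, the widest ranges were those of Ndufaf3 (4.61-fold), Ndufv3 (3.92-fold), Ndufaf4 (3.75-fold), Ndufb3 (3.68-fold) and Ndufaf1 (3.06-fold). In all, 15 members had a range of at least 2-fold. Ndufaf6 is also the member with the fewest reads and the widest spread within conditions, 21.6% at the median. Antimycin-treated control myoblasts held the lowest mean of 7 members, and antimycin-treated LbNOX myoblasts held the highest mean of 13. They were not alone. NDI1 myoblasts with DMSO and myotubes in 5% oxygen without an inhibitor each held the lowest mean of several others, and GFP myotubes with DMSO the highest of many. The 35 means are not independent of the samples tested below, and these ranges are a description.

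**Figure D1:**
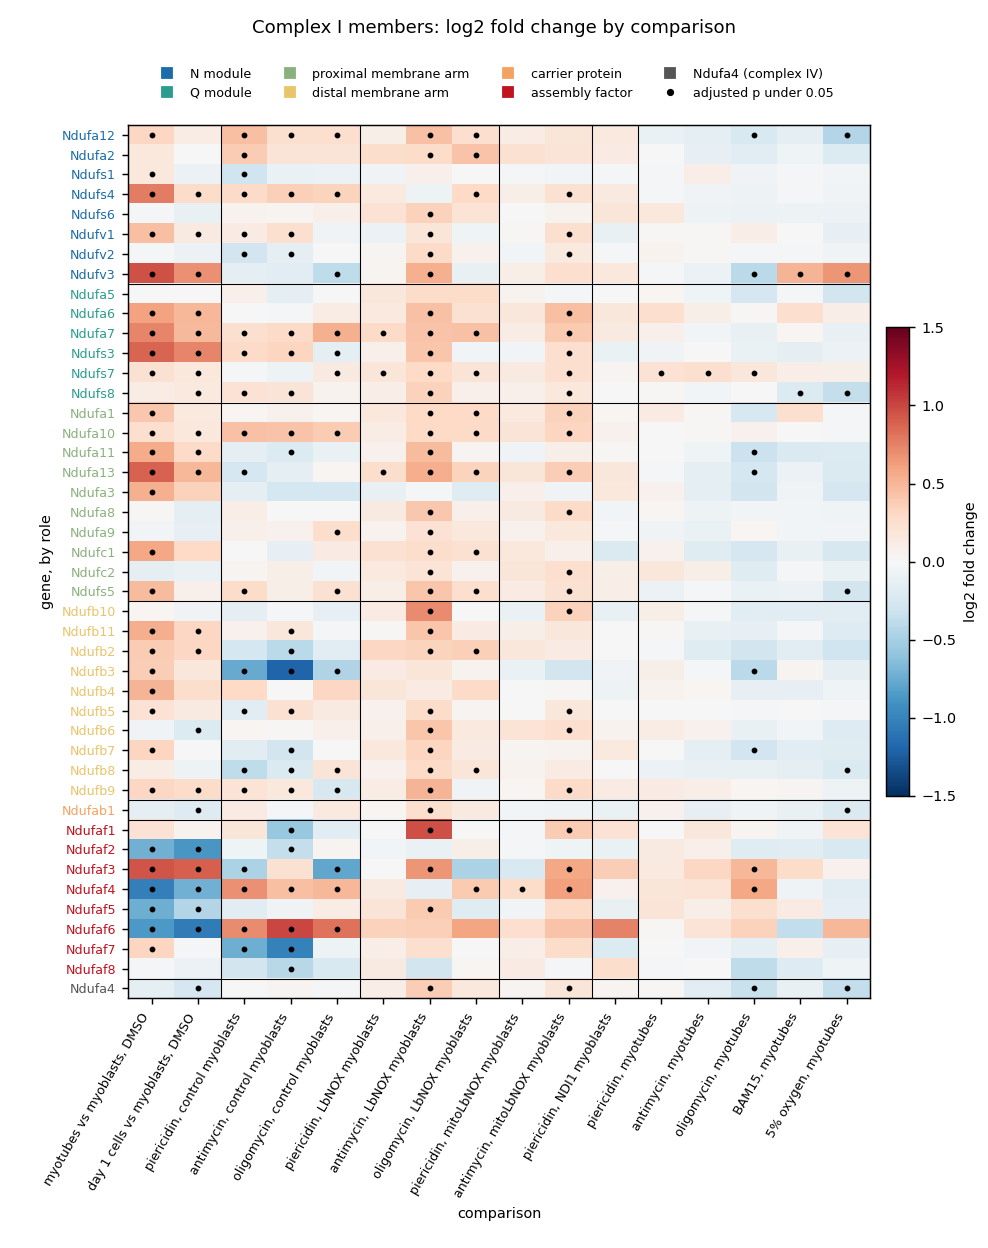
Log2 fold changes of 44 members (rows, coloured by role) in 16 comparisons (columns), red for higher and blue for lower, with a dot where the adjusted p was under 0.05. The members that rose and the 4 assembly factors that fell in myotubes stand out in the first column, and the antimycin column is mixed in control myoblasts and mostly red in LbNOX myoblasts, where 23 members rose and 3 fell without TMM scaling.

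RefSeq promoter windows (GRCm38.p6, 250 bases before the start to 50 after) matched 40 of the 45 members by symbol. Each window was searched on both strands for letters that known regulators of respiratory genes prefer. The NRF1 letters GCGCATGCG were in 4 of 40 windows (10%, against 1.75% of all 32851 windows). With the sixth base free (GCGCANGCG, which includes the former) they were in 10 (25%, against 6.25%). The ETS and GABP letters CCGGAAG were in 6 (15%, against 8.86%) and the YY1 letters AAGATGG in 8 (20%, against 6.34%). For ERR, the letters TCAAGGTCA were in 0 windows, against 0.423% of all, and the shorter AAGGTCA, which is part of them, in 3 (7.5%, against 4.72%). The ATF4 letters TGATGNAA were in 0 windows, against 3.97% of all, and the HIF letters ACGTG in 7 (17.5%, against 19.6%). These are counts of letters and were not tested. The shares of all windows were not limited to genes that pass the count filter. They count every window of a gene, where only the first was used for a member. The last 150 bases before the start are shown for 3 of the 6 members with the widest ranges, in capitals where one of these motifs lies. They come from chr4:24897933-24898082 (plus strand) for Ndufaf4, chr2:119662835-119662984 (minus strand) for Ndufaf1 and chr17:31519965-31520114 (plus strand) for Ndufv3.
Ndufaf4: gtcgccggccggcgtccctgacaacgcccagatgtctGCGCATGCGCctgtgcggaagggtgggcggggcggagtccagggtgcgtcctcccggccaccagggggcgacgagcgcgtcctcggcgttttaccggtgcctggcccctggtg
Ndufaf1: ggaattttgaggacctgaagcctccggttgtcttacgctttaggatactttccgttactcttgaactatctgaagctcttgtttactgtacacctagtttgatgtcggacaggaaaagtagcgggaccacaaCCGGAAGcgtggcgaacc
Ndufv3: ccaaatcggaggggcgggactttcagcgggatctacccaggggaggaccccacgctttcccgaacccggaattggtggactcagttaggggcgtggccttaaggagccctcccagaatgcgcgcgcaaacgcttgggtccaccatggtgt
The capitals mark NRF1 letters on both strands in Ndufaf4 and the ETS letters in Ndufaf1. The stretch of Ndufv3 holds none of the motifs, and its HIF letters begin 12 bases after the start, outside the stretch shown.

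Comparing DMSO-treated myotubes with control myoblasts addresses how the genes of complex I change with differentiation. Most subunits were higher in myotubes: 26 of 45 members rose and 4 fell, when 35.7% of all 12766 genes tested rose and 33.7% fell. The median log2 fold change was 0.25 over the members and 0.04 over all genes. The 4 members that fell were all assembly factors, and no other member was lower at an unadjusted p under 0.05. Of the Q module 5 of 7 rose (median 0.60), of the N module 5 of 8 (median 0.24), of the proximal arm 7 of 10 (median 0.44) and of the distal arm 7 of 10 (median 0.32). Of the 7 subunits that carry the catalytic core, 5 rose and 0 fell.

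Ndufv3, a small accessory subunit beside the NADH-binding flavoprotein (ENSMUSG00000024038, chr17:31520115-31531331, plus strand), read 28.1, 27.2 and 27.1 CPM in myoblasts and 49.5, 53.8 and 52.7 in myotubes, a change of 0.96 ± 0.10 (SE, adjusted p = 1.01e-09). Ndufa13, a membrane-arm subunit also known as GRIM-19, read 75, 65.3 and 71.5 CPM in myoblasts and 126, 129 and 126 in myotubes, a change of 0.89 ± 0.08 (SE, adjusted p = 1.40e-10). For both genes the groups did not overlap. Ndufs3, a core subunit of the Q module, rose by 0.87 ± 0.06 (SE, adjusted p = 2.29e-14).

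Assembly factors split. Ndufaf3, which helps to build the Q module together with Ndufaf4, read 5.76, 5.72 and 4.64 CPM in myoblasts and 11.2, 8.68 and 10.3 in myotubes and rose by 0.94 ± 0.15 (SE, adjusted p = 2.21e-06). Its partner Ndufaf4 (ENSMUSG00000028261, chr4:24898083-24905001, plus strand) went the other way, from 37.2, 33.1 and 31.9 CPM to 13.8, 18.1 and 16.7, a change of -1.03 ± 0.10 (SE, adjusted p = 5.55e-10). In neither gene did the groups overlap. Ndufaf5, which hydroxylates an arginine of Ndufs7, changed by -0.73 ± 0.13 (SE, adjusted p = 1.62e-05), and Ndufaf2, which acts late when the N module is attached, by -0.73 ± 0.15 (SE, adjusted p = 7.63e-05). Ndufaf6 read 4.64, 7.84 and 9.84 CPM in myoblasts against 3.71, 3.80 and 4.45 in myotubes, and its change of -0.86 ± 0.30 (SE, adjusted p = 0.0132) rests on few reads. Ndufaf7, a methyltransferase, rose by 0.32 ± 0.12 (SE, adjusted p = 0.0170), a call lost without TMM, without the count filter and without replicate 1 or 3. The call of Ndufaf6 was lost without replicate 2 or 3. For Ndufaf1 and Ndufaf8 the values were 0.22 ± 0.11 and -0.03 ± 0.15, and for Ndufab1 and Ndufa4 -0.14 ± 0.07 and -0.14 ± 0.09, none past the threshold. An exon overlaps an exon of another gene in 18 members, among them Ndufaf2, Ndufaf3, Ndufs3 and Ndufa13, whose neighbours lie on the opposite strand. The libraries do not keep strand, so the values of these genes are uncertain by what the neighbour contributes.

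**Figure D2:**
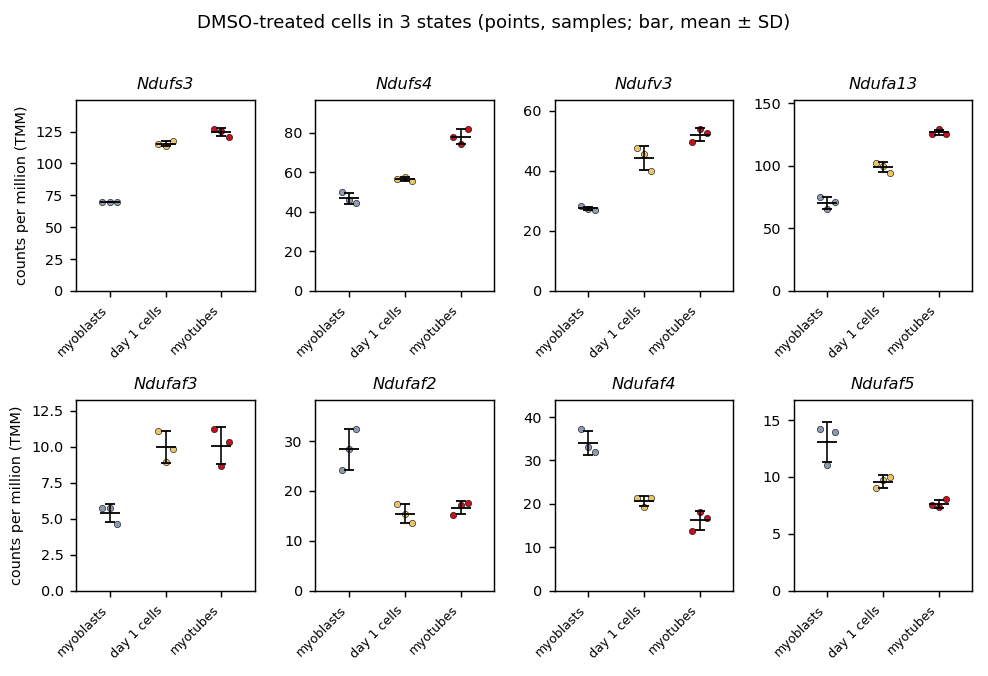
Level of 8 members in CPM (vertical axes from 0) in DMSO-treated myoblasts, day 1 cells and myotubes, with 3 samples each as points and a bar at the mean ± SD. In the upper row and in Ndufaf3 the myoblast samples lie lowest, while in Ndufaf2, Ndufaf4 and Ndufaf5 they lie highest, with means of 34.1 CPM in myoblasts and 16.2 CPM in myotubes for Ndufaf4.

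Day 1 cells had 16 members above and 7 below control myoblasts, against 31.3% and 32.3% of all genes (median of members 0.11, of all genes -0.0015). Among those that rose were Ndufaf3 (0.89 ± 0.15), Ndufs3 (0.73 ± 0.06) and Ndufv3 (0.69 ± 0.10), and the largest falls Ndufaf6 (-1.05 ± 0.30), Ndufaf2 (-0.87 ± 0.15), Ndufaf4 (-0.72 ± 0.10) and Ndufaf5 (-0.43 ± 0.13). The call of Ndufaf5 was lost without the count filter and without replicate 1 or 3, and that of Ndufaf6 without replicate 3. Ndufb6 of the distal arm (-0.21 ± 0.07) and Ndufa4 (-0.26 ± 0.09) were also called lower. Ndufb6 lost the call without TMM (-0.14), without the filter, without replicate 1 or 2 and with only the groups compared, and Ndufa4 without TMM and without replicate 2 or 3. Ndufab1 (-0.20 ± 0.07) was called in the model of all groups, and lost the call without TMM (-0.13), with DESeq2 or its size factors, without the count filter, without replicate 1 (-0.10) or 2, and with only the groups compared. Without TMM 20 rose and 4 fell. Myotubes against day 1 cells, both untransduced, gave 13 members higher and 1 lower, against 19.6% and 16% of all genes. Ndufs4, which joins the N and Q modules, rose most, from 56.8, 57.4 and 55.6 CPM in day 1 cells to 77.8, 74 and 81.6 in myotubes without overlap, a change of 0.50 ± 0.06 (SE, adjusted p = 1.36e-07). Ndufs5 (0.40 ± 0.10), Ndufa13 (0.39 ± 0.08) and Ndufaf7 (0.35 ± 0.12) followed, and Ndufaf4 was the member that fell, with a change of -0.31 ± 0.11 (SE, adjusted p = 0.0228). The call of Ndufaf4 was lost without the count filter, with the outer well as a covariate and without replicate 1 (-0.20) or 3, that of Ndufaf7 without TMM (0.23), without the filter and without replicate 2 or 3, and that of Ndufs5 without replicate 3. Between the 2 later states the count was less firm: 14 members were called in all, and 4 to 9 when a replicate number was left out of all conditions. Without TMM, where the median of all genes became -0.12, there were 4 higher and 4 lower. All 3 DMSO samples of day 1 cells and of control myoblasts sat in outer wells of the plate by the well codes, and 0 of the myotube samples did. With the outer well as a covariate 24 members differed between myotubes and myoblasts and 8 between myotubes and day 1 cells.

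The 3 inhibitors were compared with DMSO in control myoblasts to ask how respiratory chain blockade acts on these genes. The subunits did not move together: piericidin raised 12 members and lowered 8 (background 30.9% and 30.8% of 11981 genes), antimycin raised 13 and lowered 10 (32.1% and 31.1%), and oligomycin raised 10 and lowered 5 (24.5% and 26.3%). The shares of members called lay below those of all genes in each case, and the medians were 0.03, -0.0043 and 0.03. The 3 comparisons share their DMSO samples. By the well codes 3 of 3 DMSO samples sat in outer wells, against 1 of 3 with piericidin, 0 of 3 with antimycin and 1 of 3 with oligomycin. Treatment and well position therefore partly coincide in the control line. These splits depend on the scaling. Without TMM the median of all genes became -0.24, -0.30 and -0.15, and the members called higher and lower became 3 and 25 with piericidin, 1 and 29 with antimycin and 5 and 12 with oligomycin. With a replicate number left out the oligomycin count was 9 to 13. The changes below are therefore relative to the bulk of the genes. The proliferation markers fell in the same cells, 7, 8 and 7 of 8, with medians of -0.57, -0.99 and -0.42, and their part in these results was not tested.

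Among the members that rose, Ndufaf4 read 37.2, 33.1 and 31.9 CPM with DMSO, 56, 53.2 and 51.5 with piericidin, 44.6, 42 and 49.4 with antimycin and 45.8, 45.7 and 51.9 with oligomycin. All 9 treated samples lay above the 3 DMSO samples. It rose by 0.69 ± 0.08 (SE, adjusted p = 1.96e-08) with piericidin. With antimycin it rose by 0.46 ± 0.08 (SE, adjusted p = 2.00e-05), and with oligomycin by 0.50 ± 0.08 (SE, adjusted p = 6.87e-06). Ndufa10, a proximal-arm subunit related to nucleoside kinases, read 114, 112 and 108 CPM with DMSO and 154, 141 and 146, 144, 153 and 137 and 137, 147 and 148 with the inhibitors in the same order, again without overlap. It rose by 0.44 ± 0.07, 0.43 ± 0.07 and 0.38 ± 0.07. Ndufs4 rose by 0.28 ± 0.07, 0.35 ± 0.07 and 0.34 ± 0.07, and Ndufa12, an N module subunit, by 0.46 ± 0.08, 0.23 ± 0.08 and 0.25 ± 0.08. Ndufa7 of the Q module rose most with oligomycin, by 0.53 ± 0.08 (SE, adjusted p = 4.71e-06), after 0.24 ± 0.09 with piericidin and 0.29 ± 0.09 with antimycin. Ndufaf6 had fitted changes of 0.71 ± 0.26, 1.01 ± 0.26 and 0.82 ± 0.26, each past the threshold, from 4.64, 7.84 and 9.84 CPM with DMSO. Its piericidin call was lost without TMM, with only the groups compared, without replicate 1 (0.43) or 2 and with the outer well as a covariate (0.40), and its oligomycin call with that covariate (0.51). Without TMM the antimycin values of Ndufaf4, Ndufa10 and Ndufs4 became 0.16, 0.13 and 0.0568, those of Ndufa12 and Ndufa7 turned to -0.0625 and -0.00639, and none passed the threshold. In the same way the piericidin values of Ndufs4 and Ndufa7 became 0.0498 and 0.0027 and the oligomycin value of Ndufa12 0.12. Without replicate 2, and also without replicate 3, the calls of Ndufs4 with piericidin, Ndufa7 with piericidin or antimycin, and Ndufa12 with antimycin or oligomycin were lost. Both of these Ndufa12 calls were also lost without the count filter, and the antimycin one with the outer well as a covariate and with only the groups compared. Without replicate 3 the antimycin values of Ndufa12 and Ndufa7 were 0.11 and 0.17.

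Among the members that fell, Ndufb3, a small distal-arm subunit (ENSMUSG00000026032, chr1:58586384-58595964, plus strand), read 35.1, 33.2 and 31.6 CPM with DMSO, 20.2, 18.2 and 19.3 with piericidin, 10.8, 16.8 and 14.9 with antimycin and 24.9, 24.6 and 22.6 with oligomycin. All treated samples lay below all DMSO samples, and antimycin had the lowest mean. Piericidin gave a change of -0.76 ± 0.14 (SE, adjusted p = 1.88e-05). Antimycin gave -1.20 ± 0.14 (SE, adjusted p = 1.27e-08), and oligomycin gave -0.46 ± 0.13 (SE, adjusted p = 0.00483). Ndufaf7 (ENSMUSG00000024082, chr17:78937136-78948052, plus strand) read 20.1, 24.7 and 22.3 CPM with DMSO, 11.1, 16 and 12.3 with piericidin and 9.28, 11.6 and 11.4 with antimycin, and fell in both, with changes of -0.73 ± 0.12 (SE, adjusted p = 6.19e-06) and -1.02 ± 0.12 (SE, adjusted p = 3.10e-08). With oligomycin it read 20.4, 19.7 and 23.2 CPM, which overlaps DMSO (-0.08 ± 0.12, adjusted p = 0.611). Ndufb8 of the distal arm fell with piericidin (-0.38 ± 0.05) and antimycin (-0.22 ± 0.05) and was called higher with oligomycin (0.19 ± 0.05), a call lost without TMM (0.0573), without the count filter and without replicate 2 or 3. Ndufaf3 fell with oligomycin (-0.78 ± 0.20 SE, adjusted p = 0.00194) and piericidin (-0.48 ± 0.20 SE, adjusted p = 0.0423), and its value with antimycin was 0.23 ± 0.19 without passing the threshold. Oligomycin also lowered Ndufv3 (-0.38 ± 0.11) and Ndufb9 (-0.24 ± 0.04), and antimycin lowered Ndufaf8 (-0.41 ± 0.15) and Ndufaf2 (-0.35 ± 0.11). The piericidin call of Ndufaf3 was lost without any 1 of the 3 replicates, without the count filter, by DESeq2, with the outer well as a covariate and with only the groups compared. Ndufaf8 lost its call without the filter, with that covariate and without replicate 1 or 3, Ndufv3 without replicate 1, and Ndufaf2 with only the groups compared.

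Antimycin and piericidin were compared directly, and 7 members were higher and 5 lower with antimycin (19.3% and 17.9% of all genes). The widest gap was in Ndufaf1, a factor for the membrane arm (ENSMUSG00000027305, chr2:119655446-119662827, minus strand). It read 18.8, 18.8 and 18.2 CPM with DMSO, 22.1, 20.2 and 19.6 with piericidin and 14.2, 11.9 and 10.2 with antimycin, so that antimycin lay below both others without overlap. Antimycin changed it by -0.57 ± 0.14 (SE, adjusted p = 5.50e-04) against DMSO, and the difference between the inhibitors was -0.76 ± 0.14 (SE, adjusted p = 4.79e-05). Ndufb3 (-0.44 ± 0.15), Ndufaf2 (-0.29 ± 0.11) and Ndufaf4 (-0.23 ± 0.08) were also lower with antimycin, while Ndufaf3 (0.71 ± 0.20), Ndufb5 (0.40 ± 0.07) and Ndufs1 (0.20 ± 0.06) were higher. Of these 6, the call of Ndufb5 was kept under all alternatives. The call of Ndufb3 was lost with only the groups compared and without replicate 1 (-0.24) or 3. That of Ndufaf2 was lost without the count filter, with only the groups compared and without replicate 1 (-0.15) or 2. Ndufaf4 lost its call without the count filter and without replicate 1 or 2, Ndufs1 without TMM, without the count filter and without replicate 1 or 3, and Ndufaf3 without the count filter and without replicate 3. Of the catalytic core, 4 of 7 rose and 1 fell with antimycin, 3 rose and 2 fell with piericidin, and 1 rose and 1 fell with oligomycin. In the same order 32.1%, 30.9% and 24.5% of all genes rose and 31.1%, 30.8% and 26.3% fell. Without TMM fewer members than these 4 rose with antimycin in all, as given above. The count between the inhibitors was 5 to 7 with a replicate number left out, and 6 when the 2 groups alone were modelled. The split was 3 higher and 12 lower without TMM, and 5 and 6 with DESeq2 size factors.

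**Figure D3:**
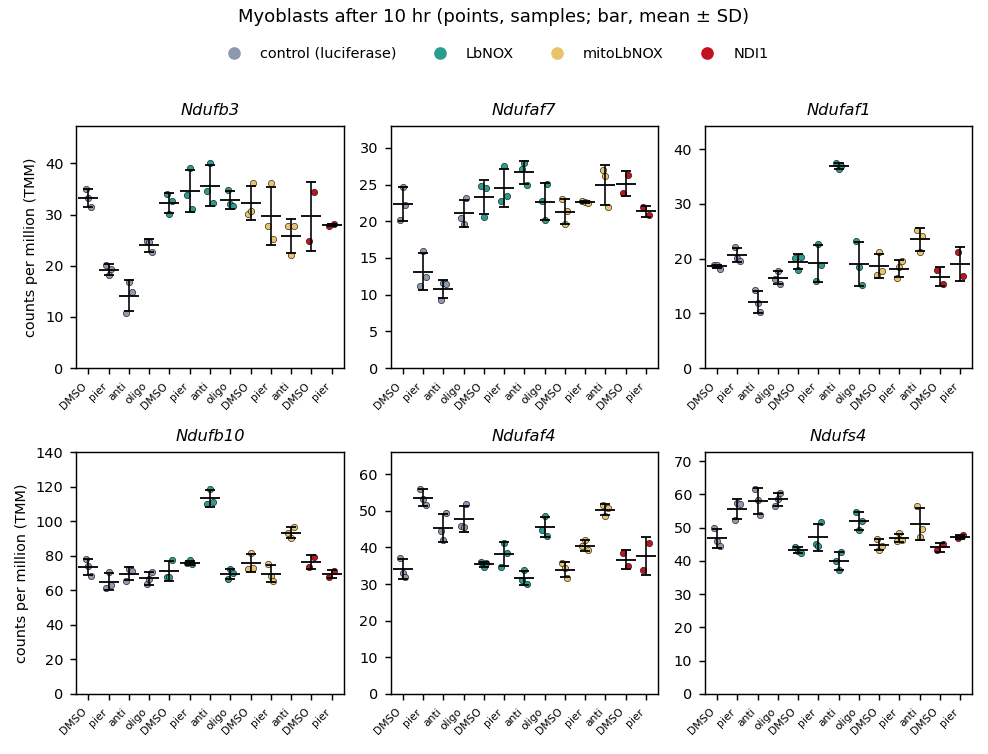
Level of 6 members in CPM (vertical axes from 0) in the 13 myoblast conditions of 10 hours, coloured by transgene, with each sample as a point (n = 3, or 2 for NDI1) and a bar at the mean ± SD. Ndufb3 and Ndufaf7 are low with piericidin and antimycin in control cells and closer to their DMSO level in the other lines, and Ndufaf1 falls to a mean of 12.1 CPM with antimycin in control cells and reaches 37 CPM in LbNOX cells.

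These responses were next compared between the transgene lines. The authors describe NDI1 as keeping up ATP synthesis as well as NADH oxidation, and report a p53 response to antimycin in LbNOX cells. The part of NADH oxidation alone was not tested. With DMSO alone the lines differed little from control cells. LbNOX cells had 1 member called, the distal-arm subunit Ndufb7 (0.34 ± 0.07 SE, adjusted p = 0.00551), when 2.68% of all genes were called. NDI1 cells also had 1, Ndufa13 (-0.32 ± 0.10 SE, adjusted p = 0.0480), against 4.61% of genes. In mitoLbNOX cells 0 members were called by edgeR against 1.77% of genes, 1 had an unadjusted p under 0.05, and DESeq2's Wald test called 1. The call of Ndufb7 was lost without replicate 2 or 3 and with only the groups compared. That of Ndufa13 was lost without any 1 of the 3 replicates, without the count filter, with the replicate block and with only the groups compared. With a replicate number left out the counts were 0 to 1 for LbNOX and 0 for NDI1.

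Under antimycin most complex I genes were higher in LbNOX cells. Of 45 members 34 rose and 0 fell (23.3% and 22.9% of all genes), with a median of 0.30 against 0.03 over all genes. Unadjusted, 0 members fell with p under 0.05, and DESeq2's Wald test called 0 lower. Every role was represented: 6 of 8 N module, 6 of 7 Q module, 9 of 10 proximal and 8 of 10 distal subunits rose, with medians from 0.28 to 0.35, and so did 3 of 8 assembly factors, Ndufab1 (0.24 ± 0.08) and Ndufa4 (0.36 ± 0.07). Of the catalytic core 6 of 7 rose, and the values ran from 0.08 to 0.41. Without TMM, where the median of all genes was -0.10, 23 members rose and 3 fell, and with a replicate number left out 26 to 31 were called. Ndufab1 lost its call without TMM (0.12), without the count filter and without any 1 of the 3 replicates.

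Ndufaf1 rose most. It read 20.1, 17.9 and 20.3 CPM with DMSO and 37.5, 36.4 and 37 with antimycin in LbNOX cells, a change of 0.97 ± 0.13 (SE, adjusted p = 1.93e-07). Ndufb10, a distal-arm subunit, read 67.5, 67.9 and 77.6 CPM and 110, 119 and 111, a change of 0.71 ± 0.07 (SE, adjusted p = 9.89e-10). For both the groups did not overlap. Ndufaf3 (0.66 ± 0.18), Ndufa13 (0.54 ± 0.09), Ndufv3 (0.53 ± 0.11) and Ndufb9 (0.51 ± 0.04) came next. Among the 11 members not called were Ndufs4, which read 44.1, 43.1 and 42.5 CPM with DMSO and 39.9, 37.2 and 42.7 with antimycin (-0.08 ± 0.07, adjusted p = 0.382), and Ndufaf4, which read 35.9, 34.6 and 35.7 and 31.1, 33.7 and 30.1 (-0.12 ± 0.08, adjusted p = 0.232). Without TMM Ndufs4 was called lower (-0.20). Both genes had been called higher with antimycin in control cells. The call of Ndufaf3 was lost without the count filter and without replicate 1.

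The difference between the lines was tested as an interaction, where a positive value means a higher response with LbNOX. Outer wells held 2 of 3 DMSO and 1 of 3 antimycin samples of LbNOX cells, and the same numbers of mitoLbNOX cells. For antimycin 23 members had a higher and 2 a lower response (24.7% and 26.8% of genes, 51.5% in all), with a median of 0.30 against -0.02 over all genes. The largest were Ndufaf1 (1.54 ± 0.18 SE, adjusted p = 3.64e-08), Ndufb3 (1.38 ± 0.19 SE, adjusted p = 5.04e-07), Ndufaf7 (1.25 ± 0.17 SE, adjusted p = 3.21e-07) and Ndufb10 (0.74 ± 0.10 SE, adjusted p = 2.35e-07). In LbNOX cells Ndufb3 read 34, 30.2 and 32.7 CPM with DMSO and 34.5, 40.1 and 32.2 with antimycin, which overlap. The responses that were lower were those of Ndufaf4 (-0.58 ± 0.12) and Ndufs4 (-0.43 ± 0.10), the latter not without replicate 2. The distal arm had 8 of 10 subunits with a higher response, the proximal arm 5 of 10, the N module 2 of 8 and the Q module 3 of 7. Without TMM 35 were higher and 2 lower, where the median of all genes was 0.15.

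MitoLbNOX cells also raised complex I genes under antimycin: 23 rose and 0 fell (24.8% and 22.9% of genes; unadjusted p under 0.05 for 1 that fell, DESeq2 0), with a median of 0.23. Without TMM 10 rose and 3 fell, where the median of all genes was -0.12, and 12 to 14 were called with a replicate number left out. Ndufaf4 led, from 35.8, 34.3 and 31.7 CPM to 51.6, 48.6 and 50.7 without overlap (0.61 ± 0.08 SE, adjusted p = 3.01e-07), followed by Ndufaf3 (0.58 ± 0.19), Ndufa6 (0.46 ± 0.09) and Ndufa7 (0.39 ± 0.08). The interaction with antimycin gave 13 members higher and 0 lower (15.4% and 16.3% of genes, 31.7% in all; 0 lower at an unadjusted p under 0.05, 0 by DESeq2), led by Ndufaf7 (1.29 ± 0.17), Ndufaf1 (0.95 ± 0.19) and Ndufb3 (0.93 ± 0.19). The antimycin call of Ndufaf3 was lost without the count filter and without replicate 2 or 3, and the interaction of Ndufb3 without replicate 1 (0.62). Ndufb2 (0.52 ± 0.17) came next, and its call was lost without replicate 1 (0.27). The count for the interaction was 3 to 12 with a replicate number left out, lowest without replicate 1, and 27 without TMM. In mitoLbNOX cells Ndufb3 read 30.1, 30.6 and 36.1 CPM with DMSO and 27.8, 22.1 and 27.8 with antimycin, below it without overlap, but the change of -0.27 ± 0.13 did not pass the threshold (adjusted p = 0.0937), although it did without TMM (-0.40).

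**Figure D4:**
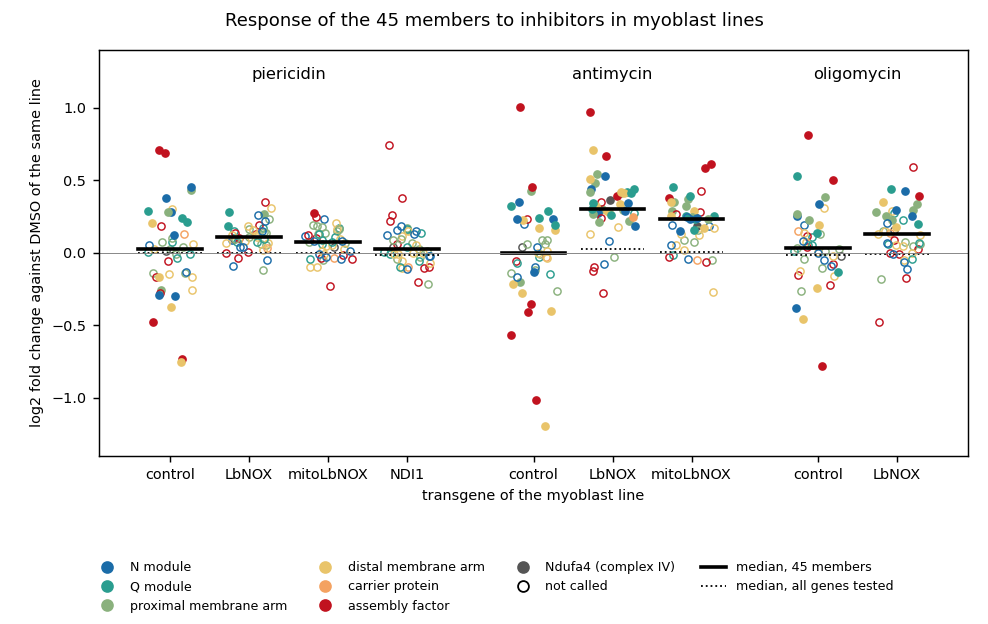
Log2 fold change of each of the 45 members against DMSO of the same line (vertical axis), by inhibitor and transgene (horizontal axis), filled where the adjusted p was under 0.05, with the median of the members (thick line) and of all genes tested (dotted line). With antimycin the median of the members goes from -0.0043 in control cells to 0.30 in LbNOX and 0.23 in mitoLbNOX cells, and with piericidin 20 points are filled in control cells, 3 in LbNOX, 1 in mitoLbNOX and 0 in NDI1 cells (unadjusted, 3). Of all 11981 genes piericidin called 7389 in control, 1063 in LbNOX, 1341 in mitoLbNOX and 1 in NDI1 cells. Without TMM the antimycin calls were 1 higher and 29 lower in control, 23 and 3 in LbNOX and 10 and 3 in mitoLbNOX cells.

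Fewer members, and fewer of all genes, were called with piericidin in the transgene lines than in control cells, where 7389 of 11981 genes were called. In LbNOX cells 3 members were called (8.87% of genes), all higher: Ndufs7, which carries the last iron-sulphur cluster before ubiquinone (0.19 ± 0.05), Ndufa7 (0.28 ± 0.09) and Ndufa13 (0.27 ± 0.09). In mitoLbNOX cells it was 1 (11.2% of genes), Ndufaf4 (0.27 ± 0.08 SE, adjusted p = 0.0266). None of these 4 calls held up in all alternatives. Those of Ndufs7, Ndufa7 and Ndufaf4 were lost without any 1 of the 3 replicates and that of Ndufa13 without replicate 1 or 2 (0.15), all 4 without the count filter, and those of the LbNOX cells also without TMM (Ndufs7 0.11) and with only the groups compared, that of Ndufa13 with the outer well as a covariate as well. In NDI1 cells 0 members were called by edgeR and 0.00835% of genes, 3 had an unadjusted p under 0.05, and DESeq2's Wald test called 0. With 2 samples per group the NDI1 comparison is the least precise, and Ndufb3 read 24.9 and 34.5 CPM with DMSO and 27.8 and 28.1 with piericidin. Outer wells held 2 of 2 NDI1 samples with DMSO and 0 of 2 with piericidin. The interactions with piericidin called 11 higher and 5 lower for LbNOX (22.3% and 22% of genes, 44.3% in all), 7 and 5 for mitoLbNOX (21.5% and 21.4%, 42.8% in all) and 8 and 4 for NDI1 (21.2% and 21.5%, 42.7% in all). Ndufb3 had interactions of 0.88 ± 0.19, 0.66 ± 0.19 and 0.70 ± 0.21, Ndufaf7 of 0.84 ± 0.17, 0.84 ± 0.17 and 0.53 ± 0.19, and Ndufaf4 of -0.56 ± 0.12, -0.41 ± 0.12 and -0.63 ± 0.13, in the same order and each past the threshold. The LbNOX interactions of these genes kept their calls under all alternatives. With mitoLbNOX, Ndufb3 lost its call without replicate 2, and Ndufaf4 without replicate 3 and without TMM (-0.19). With NDI1, Ndufb3 lost its call without replicate 1, Ndufaf4 without replicate 1 (-0.38), and Ndufaf7 without the filter and without replicate 1 or 3. Ndufa13 had interactions of 0.52 ± 0.12 with LbNOX and 0.44 ± 0.12 with mitoLbNOX, and Ndufb8 of 0.43 ± 0.08 with mitoLbNOX, kept under all alternatives. With LbNOX Ndufb2 (0.57 ± 0.17) lost its call without replicate 2. On the lower side Ndufa12 (-0.37 ± 0.12) lost it without TMM (-0.21), without the count filter and without any 1 of the 3 replicates, Ndufa10 (-0.33 ± 0.09) without TMM (-0.17) and without replicate 1 (-0.19) or 2, and Ndufs3 (-0.21 ± 0.08) without TMM (-0.0562), without the count filter, with only the groups compared and without any 1 of the 3 replicates (-0.13 without replicate 3). With mitoLbNOX Ndufa12 (-0.34 ± 0.12) lost its call without TMM (-0.12), without the count filter and without replicate 2 or 3 (-0.16), Ndufs3 (-0.33 ± 0.08) without TMM (-0.11) and without the count filter, and Ndufa10 (-0.24 ± 0.09) without TMM (-0.0188), without the count filter and without any 1 of the 3 replicates (-0.16 without replicate 1). With NDI1 Ndufaf3 (0.85 ± 0.31) lost its call without the count filter, by DESeq2, with only the groups compared and without any 1 of the 3 replicates, and Ndufa13 (0.43 ± 0.14) without replicate 1 or 2. Ndufs3 (-0.39 ± 0.09) lost it without TMM (-0.12) and without replicate 1 or 2, Ndufa10 (-0.37 ± 0.10) without TMM (-0.10) and without replicate 1 or 2, and Ndufv1 (-0.23 ± 0.07) lost it without TMM (0.0374), without the count filter and without any 1 of the 3 replicates, changing sign without TMM. The 3 interactions share the control line, and gave 7 to 11 calls for LbNOX and 6 to 9 for mitoLbNOX with a replicate number left out. In the same way the responses within a line gave 0 to 1 calls for LbNOX and 0 for mitoLbNOX, and without TMM 0 rose and 1 fell in LbNOX cells. Without TMM the splits of the interactions became 17 and 1, 22 and 0, and 21 and 1, with medians of all genes of 0.18, 0.23 and 0.29. The NDI1 count was 1 to 10 with a replicate number left out, and leaving out replicate 1 or 2 keeps 1 NDI1 sample per group, which is assumed to vary like the other groups.

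Under oligomycin LbNOX cells raised 13 members and lowered 0 (17.5% and 17.7% of genes; 1 lower at an unadjusted p under 0.05, 0 by DESeq2). They were led by Ndufa7 (0.44 ± 0.09), the N module subunit Ndufa2 (0.43 ± 0.09), Ndufaf4 (0.39 ± 0.08) and Ndufb2 of the distal arm (0.35 ± 0.12). Ndufaf4 read 44.9, 48.7 and 43.2 CPM, above the 3 DMSO samples. The count was 6 to 8 with a replicate number left out, and without TMM 4 were higher and 4 lower. Ndufb2 lost its call without TMM (0.22) and without replicate 1 or 2. For the interaction of oligomycin and LbNOX edgeR called 0 members and 7.98% of genes, 4 had an unadjusted p under 0.05, and DESeq2's Wald test called 1.

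Other genes of the complex were followed from a list of 15 assembly factors without the Nduf prefix, 14 of which were tested, and the 7 subunits of mitochondrial DNA. The mitochondrially encoded subunits fell with antimycin in all 3 lines, 7 of 7 in control cells (median -0.90), 6 in LbNOX cells (median -1.96) and 6 in mitoLbNOX cells (median -0.93), when 31.1%, 22.9% and 22.9% of all genes fell. In LbNOX cells mt-Nd3 changed by -3.13 ± 0.25 (SE, adjusted p = 1.22e-11) and mt-Nd4, a proton-pumping subunit, by -2.07 ± 0.09 (SE, adjusted p = 1.14e-17), in the same samples in which the nuclear members rose by a median of 0.30. Piericidin lowered 6 of 7 in control cells (median -0.44, 30.8% of genes), and oligomycin raised 1 (24.5% of genes), or 0 without TMM. How well polyA selection captured these transcripts was not tested. Of the 14 other assembly factors antimycin raised 2 and lowered 7 in control cells, where 32.1% of all genes rose and 31.1% fell, so that the share called was close to that of all genes. In LbNOX cells it raised 5 and lowered 3, against 23.3% and 22.9% of all genes. Without TMM these numbers were 2 and 10 in control cells and 5 and 4 in LbNOX cells. Partners of Ndufaf1 in the membrane-arm assembly complex did not share 1 direction in control cells: Acad9 changed by -0.67 ± 0.09 (SE, adjusted p = 8.35e-08) and Tmem126b by -0.85 ± 0.17 (SE, adjusted p = 5.48e-05) with antimycin, while Ecsit changed by 0.77 ± 0.10 (SE, adjusted p = 8.07e-08). With LbNOX the interaction was 1.35 ± 0.23 (SE, adjusted p = 9.17e-06) for Tmem126b and 0.85 ± 0.12 (SE, adjusted p = 7.53e-07) for Acad9. In myotubes against myoblasts 4 of the 14 rose and 4 fell, and 3 of the 7 mitochondrial subunits rose and 2 fell, when 35.7% of all genes rose and 33.7% fell.

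Few members were called with piericidin or antimycin in untransduced myotubes. Piericidin and antimycin each raised 1 of 45 members there (8.99% and 12.9% of genes called), in both cases Ndufs7, which read 113, 106 and 110 CPM with DMSO, 135, 122 and 124 with piericidin and 131, 124 and 131 with antimycin. The treated samples lay above the DMSO samples (0.21 ± 0.06 SE, adjusted p = 0.0189 and 0.24 ± 0.06 SE, adjusted p = 0.00535). The piericidin call was lost without TMM, without the count filter and without any 1 of the 3 replicates, and the antimycin call without replicate 1 or 3. The responses in myotubes and control myoblasts were compared as interactions of treatment and state. For piericidin 8 members had a higher and 5 a lower response in myotubes (25.2% and 21.3% of genes, 46.5% in all), for antimycin 6 and 7 (25.4% and 22.5%, 47.9% in all) and for oligomycin 2 and 6 (15.8% and 13.2%, 29% in all). Ndufb3 had interactions of 0.89 ± 0.17 with piericidin and 1.23 ± 0.17 with antimycin, and Ndufaf7 of 0.77 ± 0.17 and 1.03 ± 0.17. Ndufaf3 had 1.28 ± 0.22 with oligomycin, which lowered it in myoblasts. Its value with oligomycin in myotubes was 0.50 ± 0.18 (SE, adjusted p = 0.0312), past the threshold with all samples, but not without any 1 of the 3 replicates or without the count filter. On the lower side were Ndufa12 (-0.51 ± 0.13), Ndufaf4 (-0.46 ± 0.14) and Ndufa10 (-0.39 ± 0.08) with piericidin, Ndufa10 (-0.36 ± 0.08) and Ndufs4 (-0.36 ± 0.09) with antimycin and Ndufa7 (-0.63 ± 0.11) with oligomycin. Without TMM the interactions of Ndufa10 and Ndufs4 with antimycin became -0.0776 and -0.0777 and that of Ndufaf4 with piericidin -0.29, none past the threshold. Ndufaf4 also lost it without the filter and without replicate 2 or 3, and Ndufs4 without the filter. Other members with large interactions were less firm. With piericidin these were Ndufaf3 (0.67 ± 0.22), Ndufv2 of the N module (0.38 ± 0.08) and Ndufs3 (-0.29 ± 0.08). Ndufaf3 lost its call without the count filter, with only the groups compared and without any 1 of the 3 replicates, Ndufv2 without replicate 3, and Ndufs3 without TMM (-0.12), without the count filter and without replicate 1. With antimycin Ndufaf1 (0.79 ± 0.16) lost its call without replicate 3 and Ndufs7 (0.36 ± 0.09) without replicate 1. Ndufa12 (-0.33 ± 0.13) lost it without TMM (-0.0476), without the count filter, with the outer well as a covariate (-0.15) and without replicate 1 or 3, and Ndufa7 (-0.29 ± 0.11) without TMM (-0.00325), without the count filter, with the outer well as a covariate (-0.18) and without replicate 2 or 3. With oligomycin Ndufb9 (0.28 ± 0.07) lost its call without the count filter and without replicate 3, and Ndufs4 (-0.41 ± 0.09) without replicate 3. Ndufa12 (-0.48 ± 0.13) lost it without TMM, with the outer well as a covariate (-0.31) and without replicate 1 or 2, and Ndufa10 (-0.31 ± 0.08) without TMM (-0.15), with the outer well as a covariate and without replicate 2 or 3. Without TMM the splits were 18 and 2, 22 and 0, and 3 and 2, with medians of all genes of 0.23, 0.34 and 0.19. With a replicate number left out the counts were 6 to 9, 7 to 8 and 3 to 10.

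Oligomycin was the inhibitor with the most calls in myotubes, among members as over all genes. It called 4164 of 12491 genes, against 1123 with piericidin and 1613 with antimycin. Of the members 3 rose and 7 fell (16.9% and 16.4% of genes), with a median of -0.11 against -0.0058 for all genes. Ndufaf4 rose from 13.8, 18.1 and 16.7 CPM to 26.8, 22.1 and 24 without overlap (0.58 ± 0.12 SE, adjusted p = 3.59e-04). Ndufb3 fell from 42.1, 40.3 and 43.2 to 34.3, 27.6 and 32.6 (-0.41 ± 0.10 SE, adjusted p = 0.00211) and Ndufv3 from 49.5, 53.8 and 52.7 to 39.5, 37.2 and 41.1 (-0.40 ± 0.09 SE, adjusted p = 9.14e-04), also without overlap. Ndufa4 (-0.34 ± 0.09), Ndufa11 (-0.32 ± 0.08) and Ndufb7 (-0.28 ± 0.08) fell too. The calls of Ndufaf4 and Ndufa11 were lost without replicate 1 and those of Ndufa4 and Ndufb7 (-0.19) without replicate 2. Ndufs7 (0.17 ± 0.06) was called higher, but not without the count filter, with only the groups compared or without replicate 1 or 3 (0.10). The count was 5 to 11 with a replicate number left out.

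BAM15 and 5% oxygen were tested in myotubes without an inhibitor. In 5% oxygen 1 member rose and 7 fell (12.3% and 9.78% of genes), and the median was -0.12. The member that rose was Ndufv3, which read 49.5, 53.8 and 52.7 CPM with DMSO and 91.2, 85.4 and 70.4 in 5% oxygen (0.66 ± 0.09 SE, adjusted p = 1.80e-06), while Ndufs8, an iron-sulphur subunit of the Q module, fell from 112, 119 and 117 to 88.8, 92 and 89.8 (-0.36 ± 0.05 SE, adjusted p = 5.28e-06). Neither pair of groups overlapped. Ndufa12 (-0.44 ± 0.09), Ndufa4 (-0.36 ± 0.09), Ndufs5 (-0.28 ± 0.10) and Ndufab1 (-0.22 ± 0.06) also fell. Of these, Ndufs5 lost its call without any 1 of the 3 replicates, Ndufab1 without replicate 1 or 3 and without the count filter, and Ndufa4 without replicate 3 (-0.24). The count was 3 to 8 with a replicate number left out and was 1 higher and 17 lower without TMM. All 8 proliferation markers fell in 5% oxygen (median -2.36), and their part in these values was not tested. BAM15 called 2 members (25.4% of genes): Ndufv3 rose to 73.2, 71.5 and 76.4 CPM (0.51 ± 0.09 SE, adjusted p = 9.21e-05) and Ndufs8 fell to 100, 103 and 96 (-0.21 ± 0.05 SE, adjusted p = 0.00322). The BAM15 call of Ndufs8 was lost without replicate 2 or 3. Both comparisons use the same DMSO samples, and the BAM15 count was 1 to 2 with a replicate number left out and 6 with only its groups in the model. All 7 mitochondrially encoded subunits fell with BAM15 (median -0.69) and 4 fell in 5% oxygen, or 6 without TMM. Some also fell with the inhibitors in these myotubes, 5 of 7 with oligomycin (median -0.22), 3 with antimycin (median -0.25) and 1 with piericidin (median -0.08). Over all genes 16.4% fell with oligomycin, and 12.9% and 8.99% were called in either direction with antimycin and piericidin. In adenoviral myotubes oligomycin lowered mt-Nd1 alone of these subunits in GFP cells (-0.20), and mt-Nd1 (-0.18) and mt-Nd6 (-0.26) in LbNOX cells. In day 1 cells mt-Nd2 was the only one called with oligomycin, and it rose (0.44).

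Piericidin, BAM15 and 5% oxygen were also combined with oligomycin. Against oligomycin alone, BAM15 raised 2 members and lowered 4 (12% and 14.1% of genes), 5% oxygen raised 5 and lowered 5 (16.7% and 16.5%), and piericidin gave 3 calls (20.9% of genes). Ndufaf4 fell from 26.8, 22.1 and 24 CPM to 15, 14.1 and 13.8 with BAM15, 18.5, 17.3 and 21 in 5% oxygen and 19.2, 18.5 and 19.1 with piericidin. None of these samples reached the level with oligomycin alone (-0.77 ± 0.12 SE, adjusted p = 1.84e-05 for BAM15, -0.35 ± 0.12 SE, adjusted p = 0.0239 for 5% oxygen, and -0.36 ± 0.12 SE, adjusted p = 0.0255 for piericidin). The BAM15 call of Ndufaf4 was kept under all alternatives. In 5% oxygen it was lost without replicate 1, without the count filter and with only the groups compared, and with piericidin without replicate 1 or 3, without the filter and with the outer well as a covariate. Ndufb3 rose by 0.42 ± 0.10, 0.48 ± 0.10 and 0.33 ± 0.10 in the same order, and lost its calls without replicate 2, where the values in 5% oxygen and with piericidin were 0.29 and 0.20. Without replicate 3 it lost those with BAM15 and piericidin. Ndufv3 rose with BAM15 to 58.5, 63.7 and 64.3 CPM (0.66 ± 0.09 SE, adjusted p = 2.37e-06) and in 5% oxygen to 75.1, 78.5 and 72.5 (0.95 ± 0.09 SE, adjusted p = 4.21e-09), and its value with piericidin was 0.23 ± 0.09 (adjusted p = 0.0644). Ndufv1, the NADH-binding core subunit, fell with BAM15 (-0.22 ± 0.05) and in 5% oxygen (-0.27 ± 0.05), and so did Ndufs8 (-0.24 ± 0.05 and -0.19 ± 0.05). The BAM15 call of Ndufv1 was lost without replicate 1, and the 5% oxygen call of Ndufs8 without replicate 2 and with only the groups compared. In 5% oxygen Ndufaf3 had the lowest value, from 14.4, 13.4 and 14.7 CPM with oligomycin alone to 13.2, 7.49 and 9.04 (-0.50 ± 0.18 SE, adjusted p = 0.0320), and its call was lost with only the groups compared and without replicate 2 or 3. Ndufa6 (0.28 ± 0.10) and Ndufa13 (0.24 ± 0.08) were called higher there, the first lost without TMM (0.19) and without replicate 1 or 2 (0.17) and the second without TMM (0.15) and without replicate 2 (0.12) or 3. With BAM15 Ndufa9 (-0.17 ± 0.06) was called lower, which was lost without the count filter, with the outer well as a covariate, with only the groups compared and without replicate 1 (-0.10) or 2. With piericidin Ndufb7 (0.27 ± 0.08) was called higher, which was lost without replicate 2 (0.17). The 3 comparisons share the oligomycin samples. With a replicate number left out the calls were 5 with BAM15, 4 to 9 in 5% oxygen and 1 to 2 with piericidin. Without TMM 2 rose and 8 fell in 5% oxygen.

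**Figure D5:**
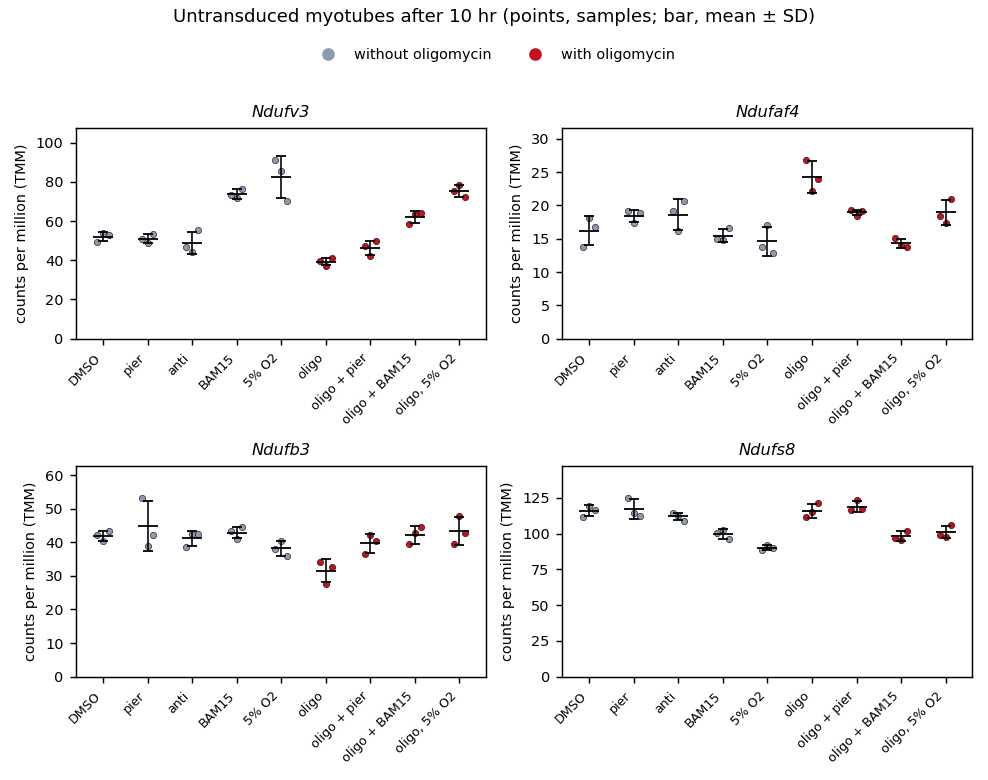
Level of 4 members in CPM (vertical axes from 0) in the 9 conditions of untransduced myotubes, 3 samples each as points with a bar at the mean ± SD, grey without and red with oligomycin. Ndufv3 is highest in 5% oxygen (mean 82.3 CPM) and lowest with oligomycin alone (39.3 CPM), and Ndufaf4 is highest with oligomycin alone.

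Myotubes with adenovirus formed another set of oligomycin-treated samples, with their own DMSO controls. In GFP myotubes oligomycin raised 2 members and lowered 8 (13.8% and 12.1% of 12397 genes), and in LbNOX myotubes it raised 2 and lowered 13 (16.6% and 15.4%). Ndufaf4 rose from 20.7 and 21.2 CPM to 30.8 and 31 in GFP and from 17, 18.5 and 18 to 23.9, 32.3 and 30.1 in LbNOX myotubes (0.55 ± 0.14 SE, adjusted p = 0.00951 and 0.67 ± 0.12 SE, adjusted p = 4.16e-04). Ndufv3 fell from 61.9 and 64 CPM to 46.2 and 43.7 and from 60.5, 63.7 and 63 to 46.2, 50.4 and 42.9 (-0.50 ± 0.08 SE, adjusted p = 2.81e-04 and -0.44 ± 0.06 SE, adjusted p = 9.91e-05), again with no overlap. Ndufb3 fell in both, with changes of -0.45 ± 0.08 and -0.33 ± 0.07, and so did Ndufa4, with -0.42 ± 0.09 and -0.31 ± 0.07. Ndufs7 was the other member called higher in both (0.18 ± 0.06 and 0.16 ± 0.05), but both calls were lost without TMM (0.11 and 0.15), without the count filter and without replicate 1 or 2. The GFP call was also lost with the outer well as a covariate and with only the groups compared, and the LbNOX call without replicate 3. In GFP myotubes the calls of Ndufaf4 and Ndufb3 were lost without replicate 1 or 2 and that of Ndufa4 without replicate 1, and in LbNOX myotubes that of Ndufa4 without replicate 3. Ndufa1 (-0.46 ± 0.09) was also called lower in GFP myotubes and Ndufb2 (-0.32 ± 0.08) in LbNOX myotubes, the first lost without replicate 1 or 2 and the second without replicate 2. Leaving out a replicate number gave 1 to 10 calls in GFP myotubes, where 1 sample per group then remains without replicate 1 or 2, and 6 to 9 in LbNOX myotubes. Without TMM 1 rose and 17 fell in GFP myotubes.

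Piericidin in LbNOX myotubes raised 3 members, Ndufaf4 (0.45 ± 0.12), Ndufs7 (0.27 ± 0.05) and Ndufa6 (0.20 ± 0.05), when 6.78% of genes were called, and 0 to 1 were called with a replicate number left out. The call of Ndufaf4 was lost with the outer well as a covariate and without any 1 of the 3 replicates, that of Ndufs7 without replicate 1 or 3, and that of Ndufa6 without the count filter, with the outer well as a covariate, with only the groups compared and without any 1 of the 3 replicates. In GFP myotubes edgeR called 0 members with piericidin and 3.09% of genes, 10 had an unadjusted p under 0.05, and DESeq2's Wald test called 0. LbNOX against GFP myotubes with DMSO had 0 calls among members and 0.0242% among genes, 4 had an unadjusted p under 0.05, and DESeq2's Wald test called 0. The difference between the LbNOX and GFP myotubes in the response to piericidin was not tested.

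Day 1 cells had 1 member called with piericidin (3.75% of genes) and 1 with oligomycin (21.3%). Piericidin raised Ndufs7 from 107, 104 and 111 CPM to 137, 133 and 136 (0.35 ± 0.06 SE, adjusted p = 0.00112), and oligomycin lowered Ndufs3 from 115, 114 and 118 to 101, 96.4 and 102 (-0.17 ± 0.05 SE, adjusted p = 0.0213). Neither pair of groups overlapped. The Ndufs7 call was lost without replicate 1, and the Ndufs3 call without replicate 1 or 2 and without the count filter.

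CAP for 48 hours raised 3 members in control myoblasts (8.45% of 11704 genes called), Ndufa13 (0.46 ± 0.08), Ndufa6 (0.33 ± 0.09) and Ndufs7 (0.25 ± 0.06). Ndufa13 read 64.6 and 61.8 CPM with DMSO and 87.3 and 81.2 with CAP, without overlap, and its call was lost when the first CAP sample or the second DMSO sample of the control line was left out. The call of Ndufa6 was lost under all 15 alternatives, and that of Ndufs7 under all of them except DESeq2 size factors in edgeR, with a value of 0.16 without TMM. In LbNOX myoblasts edgeR called 0 members and 0.931% of genes, 8 had an unadjusted p under 0.05, and DESeq2's Wald test called 0. For the interaction of CAP and LbNOX it called 0 members and 0.530% of genes, 9 had an unadjusted p under 0.05, and DESeq2's Wald test called 0. Of the mitochondrially encoded subunits 4 of 7 rose with CAP in control and 3 in LbNOX cells, with medians of 0.43 and 0.43. With 2 samples per group, the count in control cells was 0 to 2 when each of the 8 samples was left out.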

How the data were processed

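RNA-seq of 96 C2C12 samples was used. The deposited table holds estimated counts per gene, which the authors made with kallisto 0.44 after bcl2fastq 2.20.0.422 (mouse build GRCm38), adding up the flow cells and collapsing transcripts to genes by tximport. Counting did not use strand, and estimated counts divide reads between similar transcripts. Groups came from the sample labels. The table holds whole numbers, used as deposited. A gene was kept where all replicates of 1 or more conditions reached 16 counts, and 5 sets of samples were fitted with edgeR 4.0.16 (quasi-likelihood F test, TMM, R 4.3.3), with p adjusted by Benjamini-Hochberg over all genes of a fit and a threshold of 0.05. The sets were the 3 cell states, the 10 hour myoblasts, the 48 hour myoblasts, untransduced myotubes and adenoviral myotubes. DESeq2 1.42.0, other scalings, no filter, a replicate block, well position and left-out replicates were alternatives. The fit was tested on simulated data. Members and gene lists were chosen with earlier results of these data known. Of the 45 members, 1 is included in all counts, medians and the plot of responses, and its own values are not reported here. Named in full were up to 4 members per direction and comparison with the largest changes among those called, the catalytic core as a group, and Ndufa4, Ndufab1 and the assembly factors. Other members, such as Ndufb6 in day 1 cells and Ndufb8 with oligomycin, were named after their values were seen.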

Additional observations from a re-analysis of the deposited data

Results flagged for a closer look

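The response differed between lines or states by a test of the difference itself, for some complex I genes, in 8 interactions. Between LbNOX and control myoblasts 16 of 45 members differed in the response to piericidin, when 44.3% of all genes did, and 25 in the response to antimycin, when 51.5% did. For mitoLbNOX the numbers were 12 with piericidin (42.8% of all genes) and 13 with antimycin (31.7%), and for NDI1 12 with piericidin (42.7%). Between myotubes and control myoblasts the piericidin response differed in 13 members (46.5% of all genes), the antimycin response in 13 (47.9%) and the oligomycin response in 8 (29%). In 7 of the 8 interactions the share of members was below that of all genes, and for antimycin with LbNOX it was close to it. The directions were split otherwise than over all genes for antimycin: with LbNOX 23 members had a higher and 2 a lower response, against 24.7% and 26.8% of all genes, and with mitoLbNOX 13 and 0, against 15.4% and 16.3%. Without TMM the splits of the members were 35 and 2 with LbNOX and 27 and 0 with mitoLbNOX, where the medians of all genes were 0.15 and 0.15. These interactions share control samples, and the 3 between states also differ in transgene, doxycycline and serum.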

How the results depend on the processing

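Counts of members called are given for each comparison where they moved by more than 1.5 times. The cause was not tested. Scaled by total counts without TMM, the counts were 8 for myotubes against day 1 cells, 20 for interaction of piericidin and state, 22 for interaction of antimycin and state, 5 for interaction of oligomycin and state, 3 for oligomycin in day 1 cells, 1 for piericidin in LbNOX myoblasts, 8 for oligomycin in LbNOX myoblasts, 13 for antimycin in mitoLbNOX myoblasts, 3 for NDI1 against control myoblasts, 1 for interaction of oligomycin and LbNOX, 22 for interaction of piericidin and mitoLbNOX, 27 for interaction of antimycin and mitoLbNOX, 22 for interaction of piericidin and NDI1, 1 for chloramphenicol in control myoblasts, 0 for piericidin in myotubes, 18 for 5% oxygen in myotubes and 18 for oligomycin in GFP myotubes. Without the count filter, the counts were 8 for myotubes against day 1 cells, 7 for interaction of piericidin and state, 5 for interaction of antimycin and state, 0 for oligomycin in day 1 cells, 4 for antimycin against piericidin in control myoblasts, 0 for piericidin in LbNOX myoblasts, 7 for oligomycin in LbNOX myoblasts, 0 for piericidin in mitoLbNOX myoblasts, 14 for antimycin in mitoLbNOX myoblasts, 1 for mitoLbNOX against control myoblasts, 0 for NDI1 against control myoblasts, 9 for interaction of piericidin and LbNOX, 5 for interaction of piericidin and mitoLbNOX, 6 for interaction of piericidin and NDI1, 1 for chloramphenicol in LbNOX myoblasts, 0 for piericidin in myotubes and 9 for oligomycin in LbNOX myotubes. With the DESeq2 Wald test, the counts were 2 for oligomycin in day 1 cells, 2 for piericidin in mitoLbNOX myoblasts, 1 for mitoLbNOX against control myoblasts, 1 for interaction of oligomycin and LbNOX and 4 for BAM15 in myotubes. With the replicate block, the counts were 2 for oligomycin in day 1 cells, 0 for NDI1 against control myoblasts and 1 for chloramphenicol in control myoblasts. With the outer well as a covariate, the counts were 8 for myotubes against day 1 cells, 8 for interaction of antimycin and state, 5 for interaction of oligomycin and state, 2 for piericidin in mitoLbNOX myoblasts, 1 for chloramphenicol in control myoblasts and 1 for piericidin in LbNOX myotubes. With only the groups compared in the model, the counts were 2 for piericidin in day 1 cells, 6 for antimycin against piericidin in control myoblasts, 0 for piericidin in LbNOX myoblasts, 3 for piericidin in mitoLbNOX myoblasts, 0 for LbNOX against control myoblasts, 0 for NDI1 against control myoblasts, 1 for interaction of oligomycin and LbNOX, 1 for chloramphenicol in control myoblasts, 6 for BAM15 in myotubes and 6 for oligomycin in 5% oxygen against oligomycin in myotubes. With DESeq2 size factors in edgeR, the counts were 2 for oligomycin in day 1 cells. With a replicate number left out, or a single sample for chloramphenicol (chosen after seeing the data), the counts ran over 4 to 9 for myotubes against day 1 cells, 7 to 8 for interaction of antimycin and state, 0 to 1 for piericidin in day 1 cells, 0 to 2 for oligomycin in day 1 cells, 6 to 9 for interaction of piericidin and state, 3 to 10 for interaction of oligomycin and state, 5 to 7 for antimycin against piericidin in control myoblasts, 0 to 1 for piericidin in LbNOX myoblasts, 6 to 8 for oligomycin in LbNOX myoblasts, 0 for piericidin in mitoLbNOX myoblasts, 12 to 14 for antimycin in mitoLbNOX myoblasts, 0 for NDI1 against control myoblasts, 7 to 11 for interaction of piericidin and LbNOX, 3 to 12 for interaction of antimycin and mitoLbNOX, 1 to 10 for interaction of piericidin and NDI1, 9 to 13 for oligomycin in control myoblasts, 0 to 1 for LbNOX against control myoblasts, 6 to 9 for interaction of piericidin and mitoLbNOX, 0 to 2 for chloramphenicol in control myoblasts, 0 for piericidin in myotubes, 0 to 1 for antimycin in myotubes, 5 to 11 for oligomycin in myotubes, 1 to 2 for BAM15 in myotubes, 1 to 2 for oligomycin with piericidin against oligomycin in myotubes, 4 to 9 for oligomycin in 5% oxygen against oligomycin in myotubes, 3 to 8 for 5% oxygen in myotubes, 0 to 1 for piericidin in LbNOX myotubes, 1 to 10 for oligomycin in GFP myotubes and 6 to 9 for oligomycin in LbNOX myotubes. Where this leaves 1 sample in a group, it is assumed to vary like the other groups. Samples with the same replicate number did not deviate together: the mean correlation of their deviations was -0.0413 to 0.0338 over the 5 fits, so the numbers were not taken as pairs, and the replicate block moved the 3 counts given above. Among single members called, Ndufv1 changed sign in the interaction of piericidin and NDI1, to 0.0374 without TMM, and so did Ndufa12 and Ndufa7 with antimycin in control myoblasts, to -0.0625 and -0.00639. Depth limits Ndufaf6 most.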
